A study of Mus musculus with 5 samples.

Results

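The genes described here encode the 8 different subunits of the cytosolic chaperonin CCT, also called TRiC: Tcp1 (subunit alpha), Cct2 (beta), Cct3 (gamma), Cct4 (delta), Cct5 (epsilon), Cct6a (zeta), Cct7 (eta) and Cct8 (theta). They were taken by symbol from the deposited table of mouse cardiomyocyte RNA, where each symbol matched 1 row, giving 8 of 12446 genes. All 8 passed the filter of a mean of at least 1 RPKM (reads normalised to gene length and to library size), which left 10915 genes for the tests.

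CCT is a double ring that uses ATP to close over a newly made protein and let it fold inside. Each ring holds one copy of each subunit, so the complex needs all of them in matched amounts. Its best known clients are actins and tubulins, and proteins with WD40 repeats also pass through it. Prefoldin brings unfolded actin and tubulin to the ring, and phosducin-like proteins act as cofactors. In cardiomyocytes these clients build the thin filaments and the microtubule network.

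RNA-seq was performed on cardiomyocytes (CMs) isolated from hearts of C57BL/6 mice aged 12 to 14 weeks. The 3 OSKM-CMs libraries (replicates 1, 2 and 3) came from mice given 4 vectors together: AAV-cTnT-Oct4-His6 for Oct4, AAV-cTnT-Sox2-Flag for Sox2, AAV-cTnT-Klf4-HA for Klf4 and AAV-cTnT-Myc-V5 for Myc, each at 2.5e+10 vector genomes per gram of body weight. The 2 Control-CMs libraries (replicates 3 and 5) came from mice given AAV-cTnT-BFP, a fluorescent protein vector, at 1e+11 vector genomes per gram. Injection was into the thoracic cavity of male mice at 8 weeks, cTnT is the cardiac troponin T promoter active in cardiomyocytes, and every animal thus carried AAV. The labels do not tie libraries to separate mice. The spread behind each p-value is thus that of these libraries, and it may be technical.

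The library totals recovered from the deposited values were 2691796 to 3861805 reads. The delivered genes served as a check of the labels. Pou5f1 (Oct4) had 262 to 344 reads and Sox2 254 to 391 reads in the OSKM-CMs libraries, and both had 0 reads in the controls, where a count of 0 allows up to 3 reads per library. OSKM replicate 1 held the highest scaled RPKM of all 4 factors among the OSKM-CMs libraries. The share of reads from genes of mitochondrial DNA was 9.76% to 11.1% in OSKM-CMs and 21.2% to 24.7% in controls. Levels are therefore given after TMM scaling (a trimmed mean of log ratios to a reference library), under which the median log2 fold change of all tested genes was 0.02. With library totals alone this median was 0.36.

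RefSeq promoter windows on build GRCm38.p6 were matched by symbol for 7 of the 8 subunits, all but Cct4. Those of 4 subunits are printed, because these genes span the range of change from the largest (Cct3) through Cct8 and Cct2 to the smallest (Cct7). Each is the 250 bases before the annotated transcription start, 5′ to 3′ along the gene's strand, and capitals mark each GC box, GGGCGG or its reverse complement CCGCCC.
Cct3 (strand +, chr3:88296885-88297134): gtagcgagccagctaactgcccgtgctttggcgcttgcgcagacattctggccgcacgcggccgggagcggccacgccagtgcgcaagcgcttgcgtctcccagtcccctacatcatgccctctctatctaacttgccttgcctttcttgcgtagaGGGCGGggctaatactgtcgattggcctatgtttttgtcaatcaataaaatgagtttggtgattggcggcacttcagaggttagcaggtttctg
Cct8 (strand -, chr16:87495870-87496119): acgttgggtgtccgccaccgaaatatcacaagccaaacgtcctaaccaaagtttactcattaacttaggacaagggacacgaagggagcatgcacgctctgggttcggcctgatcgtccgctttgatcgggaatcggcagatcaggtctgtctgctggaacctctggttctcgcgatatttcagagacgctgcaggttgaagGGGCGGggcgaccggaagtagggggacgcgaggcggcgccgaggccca
Cct2 (strand -, chr10:117063853-117064102): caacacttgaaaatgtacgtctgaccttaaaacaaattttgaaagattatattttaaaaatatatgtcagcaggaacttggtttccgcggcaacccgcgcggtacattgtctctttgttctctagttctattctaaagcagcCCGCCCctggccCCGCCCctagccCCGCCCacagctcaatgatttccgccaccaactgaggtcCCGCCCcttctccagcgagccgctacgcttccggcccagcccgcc
Cct7 (strand +, chr6:85451255-85451504): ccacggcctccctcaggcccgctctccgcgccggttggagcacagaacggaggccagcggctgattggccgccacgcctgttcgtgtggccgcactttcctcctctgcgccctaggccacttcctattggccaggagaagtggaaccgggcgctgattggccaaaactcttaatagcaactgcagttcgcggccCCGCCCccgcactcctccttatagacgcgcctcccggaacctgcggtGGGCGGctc
Cct2 carries 4 GC boxes in its printed stretch, Cct7 2, and Cct3 and Cct8 1 each. Over the full 300-base windows (250 before to 50 after the start), the GC box occurred on either strand in 8 of the 9 windows of these 7 subunits and in 35.7% of all 32851 windows. Cct2 and Cct5 have a second window each, and the one without a GC box belongs to Cct5, whose other window has one. The CCAAT box (letters CCAAT or ATTGG) occurred in 4 of the 9 windows, those of Tcp1, Cct3, Cct6a and Cct7, and in 37.4% of all windows. The E-box CACGTG matched 0 of the 9 windows and 7.15% of all windows. The octamer ATGCAAAT also matched 0 of the 9 and was present in 1.74% of all windows. The letters CATTGT, the core of a SOX site, matched 1 of the 9, in Cct2, and 12.6% of all windows. TATAAA and the heat shock element matched 0 of the 9, against 13.6% and 0.603% of all windows. Matches of different motifs did not overlap in these windows, and a match is a description of letters only.

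CCT transcripts were higher in OSKM-CMs. Of the 8 subunits, 7 rose and 0 fell at a Benjamini-Hochberg adjusted p under 0.05 in limma, while 15.9% of all tested genes were called higher and 14.3% lower, 30.2% in either direction. Cct7 did not pass. The fold of mean levels ran from 1.28 for Cct7 to 2.07 for Cct3, and the median log2 fold change of the 8 was 0.73. Every subunit's lowest OSKM-CMs library lay above its highest control library, a pattern seen in 30.0% of all tested genes. Because RNA was bulk, fewer cells of a type and less RNA per cell cannot be told apart in any of these values.

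**Figure D1:**
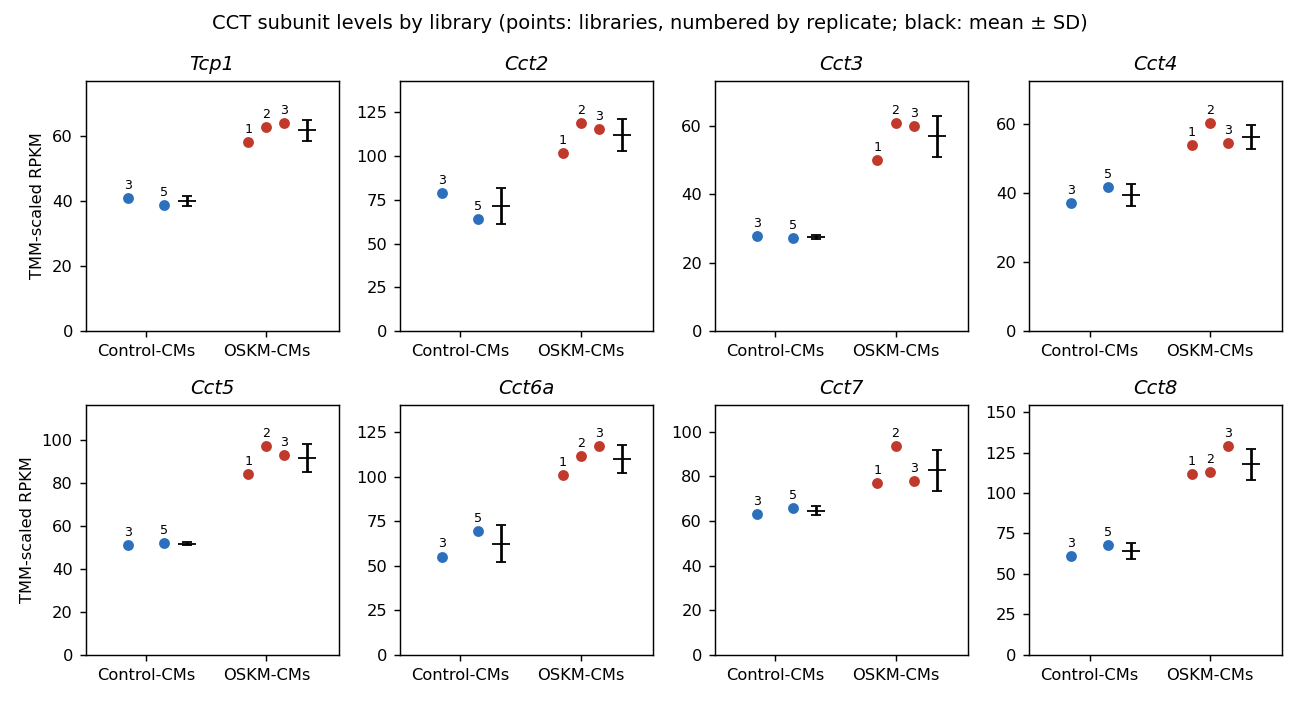
TMM-scaled RPKM (vertical axis, starting at 0 and scaled separately for each gene) of the 8 CCT subunits in 2 Control-CMs libraries (blue, replicates 3 and 5) and 3 OSKM-CMs libraries (red, replicates 1 to 3), with the mean and SD of each group in black. The red points lie above the blue points in all 8 panels, and the gap is widest relative to the level for Cct3 (56.9 against 27.5) and narrowest for Cct7 (82.7 against 64.6).

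Cct3, the gamma subunit, changed most. Its scaled RPKM was 50.1, 60.9 and 59.8 in OSKM replicates 1, 2 and 3, and 27.8 and 27.1 in control replicates 3 and 5. The controls were nearly equal, and even the lowest OSKM-CMs library was far above them. Its mean rose from 27.5 ± 0.499 (SD, n = 2) to 56.9 ± 5.97 (SD, n = 3), a log2 fold change of 1.02 (SE 0.13, limma, adjusted p = 0.00137). Among all tested genes this change stood at percentile 93.0.

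Cct8, the theta subunit, followed. It measured 111, 113 and 129 scaled RPKM in OSKM replicates 1 to 3 against 60.9 and 67.6 in control replicates 3 and 5, so its highest value was in OSKM replicate 3. The means were 118 ± 9.61 (SD, n = 3) and 64.2 ± 4.76 (SD, n = 2), and the log2 fold change was 0.86 (SE 0.12, limma, adjusted p = 0.00201).

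Cct5, the epsilon subunit, which is mutated in a hereditary sensory neuropathy, had controls that lay close together. It measured 84.2, 96.8 and 93.0 scaled RPKM in OSKM replicates 1 to 3 and 51.1 and 52.1 in control replicates 3 and 5. Its log2 fold change was 0.81 (SE 0.11, limma, adjusted p = 0.00211). Cct6a, the widely expressed zeta subunit, had the same log2 fold change of 0.81, but with a larger SE of 0.14 and adjusted p = 0.00428 in limma. Its levels were 101, 112 and 117 scaled RPKM in OSKM replicates 1 to 3 and 55.2 and 69.7 in control replicates 3 and 5. The control libraries differed from each other by more for Cct6a than for Cct5.

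Cct2, the beta subunit, mutated in a form of Leber congenital amaurosis, also had controls that lay apart. It measured 102, 119 and 115 scaled RPKM in OSKM replicates 1 to 3 against 78.8 and 64.2 in control replicates 3 and 5, with a log2 fold change of 0.65 (SE 0.13, limma, adjusted p = 0.0101). Here control replicate 3 was the higher control, the reverse of Cct6a. Without control replicate 5 the adjusted p of Cct2 in limma was 0.0655.

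Tcp1, the alpha subunit that gave the complex its first name, was steady within both groups. Its scaled RPKM was 58.1, 62.8 and 64.0 in OSKM replicates 1 to 3 and 40.9 and 38.8 in control replicates 3 and 5. The log2 fold change was 0.62 (SE 0.11, adjusted p = 0.00575 in limma). In GENCODE M21 on GRCm38, Tcp1 shares 645 bases with Mrpl18, a mitochondrial ribosomal protein gene on the opposite strand, and whether counting used strand is not given in the sources used here. Mrpl18 moved the other way, from 63.2 and 53.5 scaled RPKM in control replicates 3 and 5 to 25.6, 36.3 and 30.9 in OSKM replicates 1 to 3, a log2 fold change of −0.90 (SE 0.17, adjusted p = 0.00607 in limma). Mrpl18 was not called with library totals alone, at adjusted p = 0.0593 in limma. Acat3 shares 1255 bases with Tcp1 on the opposite strand and was not analysed here.

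Cct4, the delta subunit, showed the smallest change that passed. It measured 54.0, 60.5 and 54.5 scaled RPKM in OSKM replicates 1 to 3 and 37.2 and 41.8 in control replicates 3 and 5. Its log2 fold change was 0.50 (SE 0.12, limma, adjusted p = 0.0175). Without control replicate 3, the lower control, the adjusted p in limma was 0.101.

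Cct7, the eta subunit, was the exception. It measured 76.8, 93.4 and 77.8 scaled RPKM in OSKM replicates 1 to 3 and 63.2 and 66.0 in control replicates 3 and 5. Replicates 1 and 3 stood only slightly above the controls, and replicate 2 lay well above the other two. The log2 fold change was 0.35 (SE 0.13, 95% confidence interval 0.05 to 0.64), with adjusted p = 0.0763 in limma. With library totals alone Cct7 passed, at a log2 fold change of 0.76 and adjusted p = 0.00266 in limma. Under that scaling all 8 subunits and 36.5% of all tested genes were called higher.

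**Figure D2:**
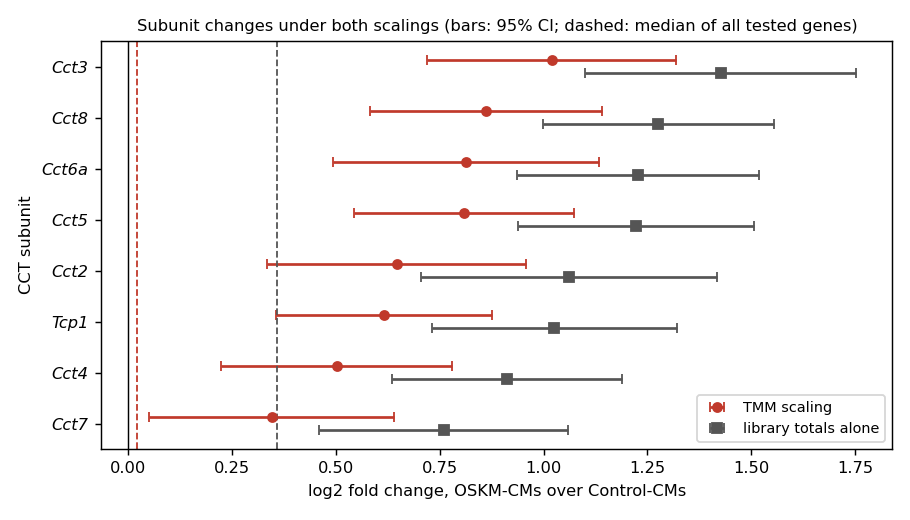
Log2 fold change of each CCT subunit, OSKM-CMs over Control-CMs, under TMM scaling (red circles) and with library totals alone (grey squares), with 95% confidence intervals as bars and the median of all tested genes as dashed lines in the same colours (0.02 and 0.36). The order of the subunits is alike under both scalings, with Cct3 at the top and Cct7 at the bottom. A change of scaling moves all subunits by nearly the same amount, so a like order is no separate evidence.

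The authors' deposited table gave the same ranking at its ends, with a log2 fold change of 1.05 for Cct3 and 0.35 for Cct7. There 7 of the 8 subunits had an FDR under 0.05 in the authors' deposited table, and 16.4% of all genes were higher at that level. Cct7 was again the subunit above the threshold, with an FDR of 0.0944 in the authors' deposited table. Reads behind a subunit in a library numbered 272 (Cct6a, control replicate 3) to 985 (Tcp1, OSKM replicate 3). The counting error alone was thus 6.06% to 3.19%, and the coefficient of variation among the OSKM-CMs libraries was 5.04% to 11.2%.

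The summed level of the 8 subunits was 638, 718 and 710 scaled RPKM in OSKM replicates 1 to 3 and 415 and 427 in control replicates 3 and 5. The groups did not overlap, and the controls were close together. The means were 688.7 ± 44.4 (SD, n = 3) and 421 ± 8.59 (SD, n = 2), a ratio of 1.63. An exact two-sided permutation test gave p = 0.2, the smallest value that 3 libraries against 2 allow. CCT reads made up 0.1996%, 0.228% and 0.227% of library reads in OSKM replicates 1 to 3 and 0.104% and 0.0957% in control replicates 3 and 5. The exact 95% binomial intervals, which cover counting error only, ran from 0.194% upward in OSKM-CMs and up to 0.107% in controls.

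OSKM replicate 1 was the lowest OSKM-CMs library for all 8 subunits, and it had the highest factor levels. The margin was small for Cct4 (54.0 against 54.5 scaled RPKM in replicate 3), Cct7 (76.8 against 77.8 in replicate 3) and Cct8 (111 against 113 in replicate 2). How many of all tested genes were lowest in OSKM replicate 1 was not counted. Pou5f1 measured 49.7 scaled RPKM in OSKM replicate 1 and 37.3 and 38.6 in replicates 2 and 3. The CCT sum was 638 in replicate 1 and 718 and 710 in the others. Only 3 libraries carried the factors, so no relation between factor level and CCT level was tested.

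The balance among subunits was examined within each library as the share of a subunit in the summed RPKM of the 8, a quantity on which library scaling has no effect. Cct7 made up 12.0%, 13.01% and 10.95% in OSKM replicates 1 to 3 and 15.2% and 15.4% in control replicates 3 and 5. Cct3 made up 7.85%, 8.48% and 8.42% in OSKM-CMs and 6.70% and 6.35% in controls. These shares moved in opposite directions, by −3.33 percentage points for Cct7 and 1.73 for Cct3, and neither overlapped between groups.

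Smaller shifts without overlap were seen for Cct4, from a mean of 9.37% in controls to 8.19% in OSKM-CMs, and for Cct5, from 12.3% to 13.3%. The shares of Tcp1 (8.96% in OSKM-CMs, 9.47% in controls), Cct2 (16.3%, 17.0%), Cct6a (16.0%, 14.8%) and Cct8 (17.1%, 15.2%) overlapped. The exact permutation p was 0.2, the smallest possible, for each of the 4 subunits without overlap, and 0.4 after adjustment over the 8. With 3 libraries against 2 this test cannot reach 0.05 for any share. For Tcp1 the overlap depended on the measure, and its share of the summed recovered reads did not overlap. That share was 16.224%, 15.529% and 16.100% in OSKM replicates 1 to 3 and 17.497% and 16.234% in control replicates 3 and 5.

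As Cct3 changed most and Cct7 least, the ratio of Cct3 to Cct7 had to show the largest shift of the 28 subunit pairs. It was 0.652, 0.652 and 0.769 in OSKM replicates 1 to 3 and 0.440 and 0.411 in control replicates 3 and 5, a difference of 0.70 on the log2 scale. The ratio of Cct7 to Cct8 moved from 1.04 and 0.976 in the controls to 0.689, 0.827 and 0.604 in OSKM-CMs. Ratios did not overlap between groups for 16 of the 28 pairs, each with the smallest exact permutation p of 0.2, adjusted to 0.35. These pairs share subunits and are not independent. The share without overlap over all pairs of genes was not computed. For single genes, levels did not overlap in 30.0% of all tested genes upward and in 27.9% downward. The counts of subunit shares and ratios without overlap thus do not show by themselves that the balance changed.

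**Figure D3:**
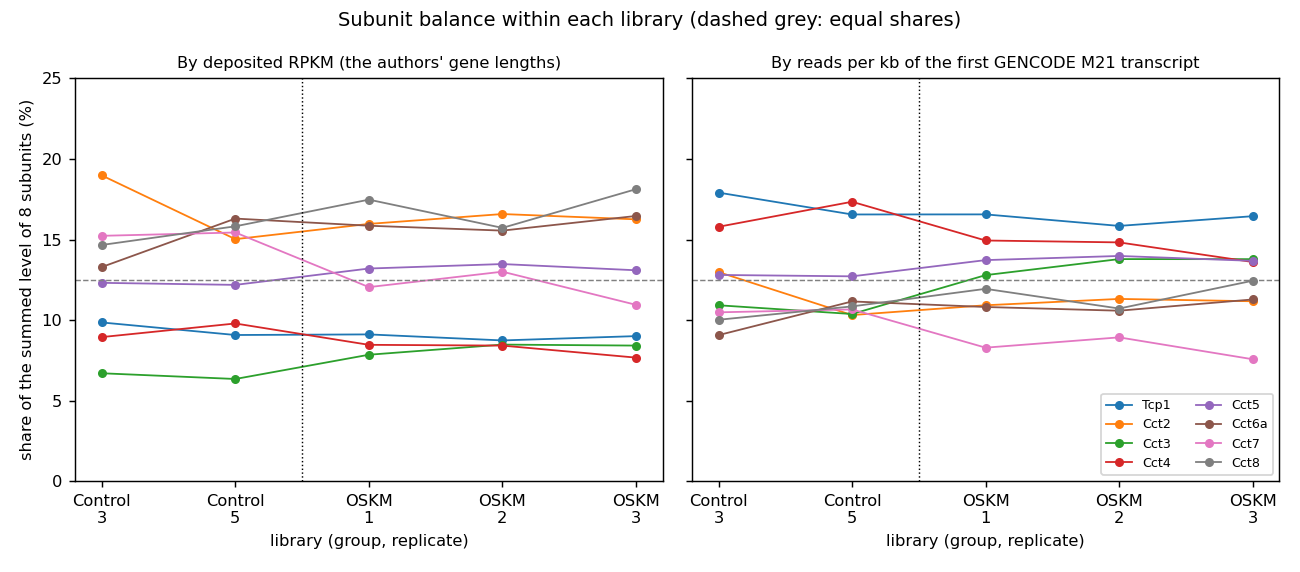
Share of each CCT subunit in the summed level of the 8 (vertical axis, percent) in each library, by deposited RPKM (left) and by reads per kilobase of the first GENCODE M21 transcript (right). Lines join the values of one subunit across libraries, the dotted line separates the groups and the dashed line marks equal shares. Cct7 (pink) is lower and Cct3 (green) is higher in the OSKM-CMs libraries in both panels, whereas the order of levels differs between panels.

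The order of subunit levels per length depended on which length was used. By deposited RPKM, Cct3, Cct4 and Tcp1 were the lowest 3 subunits in all 5 libraries, and the highest was Cct8, Cct2 or Cct6a. The gap between the highest and the lowest subunit was 1.97-fold to 2.83-fold within a library. The lengths recovered from the deposited values were 5020 bases for Tcp1, 4678 for Cct3 and 4188 for Cct4. These are 2.64, 2.37 and 2.56 times the first-numbered GENCODE M21 transcript, and that of Cct5 (2798 bases) is 1.51 times, whereas the lengths agreed within 1% for Cct2, Cct6a, Cct7 and Cct8.

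With reads per kilobase of that transcript, a comparison chosen after the data were seen, Tcp1 was highest in 4 libraries and Cct4 in control replicate 5. Cct7 was then the lowest subunit in all 3 OSKM-CMs libraries, at 7.57% to 8.93% of the sum. The coefficient of variation over the 8 subunits was 27.8% to 32.6% by deposited RPKM and 19.5% to 24.4% by transcript length. By deposited RPKM this variation overlapped between groups, and by transcript length it was lower in each OSKM-CMs library (19.5% to 20.8%) than in either control (22.9% and 24.4%). The share of Cct7 went from 10.6% in controls to 8.27% in OSKM-CMs, and that of Cct3 from 10.7% to 13.5%. A fixed length per gene nearly cancels from the ratio of such shares between groups, so like shifts are no separate evidence.

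Prefoldin genes, whose product hands clients to the ring, gave no higher call under TMM scaling. Of the 5 measured, 0 rose and 1 fell, and the list's median log2 fold change was 0.10. Pfdn5 fell, with 51.7, 48.9 and 50.7 scaled RPKM in OSKM replicates 1 to 3 against 72.2 and 84.1 in control replicates 3 and 5, a log2 fold change of −0.62 (SE 0.12, adjusted p = 0.00699 in limma). The libraries did not overlap for Pfdn5. Its call was lost with library totals alone and without control replicate 5. The ratio of summed CCT to summed prefoldin was 4.31, 4.89 and 4.56 in OSKM replicates 1 to 3 and 2.52 and 2.41 in control replicates 3 and 5, 1.86 times higher (exact permutation p = 0.2, the smallest possible).

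The phosducin-like cofactors Pdcl, Pdcl3 and Txndc9 gave 0 calls among 3 and a median of 0.13. The CCT-like paralogues, of which Mkks and Bbs10 were tested, gave 0 calls and a median of −0.13. For all lists the counts stand beside 15.9% of all tested genes higher and 14.3% lower. With library totals alone, 36.5% of all tested genes were called higher. Higher calls were then 2 of 5 for prefoldin, 2 of 3 for phosducin-like cofactors and 0 of 2 for paralogues. They were 6 of 7 for actins, 8 of 12 for tubulins, 3 of 10 for WD40 and other clients and 6 of 7 for tubulin cofactors. Hsp70 and Hsp90 partners gave 5 of 11, mitochondrial chaperonin 1 of 2 and heat shock factors 1 of 2.

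Among tubulins, 7 of 12 rose and 2 fell, and the median log2 fold change was 1.25. Tubb2b went from 0.844 ± 0.720 (SD, n = 2) to 11.8 ± 3.77 (SD, n = 3) scaled RPKM, with a log2 fold change of 2.80. It had 2 and 8 reads in control replicates 3 and 5 and 44, 80 and 85 in OSKM replicates 1 to 3. Tubb2a rose by 2.71 and Tuba1c by 2.05 on the log2 scale. Tuba8, an alpha tubulin of striated muscle and testis, fell by 2.48 on the log2 scale. Without control replicate 5 its log2 fold change was −2.43 and the call was lost (adjusted p = 0.0562 in limma), and the list then had 5 higher and 0 lower calls. The summed tubulin level overlapped between groups, at 473, 849 and 709 scaled RPKM in OSKM replicates 1 to 3 and 638 and 649.5 in control replicates 3 and 5. Tuba4a, the most abundant tubulin of the controls, fell from 358 ± 33.0 (SD, n = 2) to 141 ± 59.2 (SD, n = 3) scaled RPKM.

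Actins and actin-related proteins gave 2 higher and 0 lower calls among 7. Acta1, the skeletal muscle actin, rose by 1.81 and Acta2, the smooth muscle actin, by 1.90 on the log2 scale in limma. The call of Acta2 was lost without control replicate 3. Actc1, the cardiac actin and by far the most abundant client listed, measured 6455 ± 1089 (SD, n = 3) scaled RPKM in OSKM-CMs and 6243 ± 31.4 (SD, n = 2) in controls and was not called. The list's median was 0.18.

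WD40-repeat and other clients gave 3 higher and 0 lower calls among 10, with a median of −0.04. The 3 were Cdc20, an activator of the anaphase-promoting complex, at a log2 fold change of 1.12, Stat3 at 0.55 and Gnb1, a G-protein beta subunit, at 0.51. Cdc20 had few reads, 8, 18 and 15 in OSKM replicates 1 to 3 and 4 and 2 in control replicates 3 and 5. Its log2 fold change was 0.41 with a pseudocount of 5 and 2.01 with limma voom. The list had 0 calls without OSKM replicate 3, 1 without control replicate 5 and 2 without any other single library.

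Tubulin folding cofactors, which take tubulin on from CCT, gave 3 higher and 0 lower calls among 7 with a median of 0.42. Tbca rose by 0.72, Tbcd by 0.61 and Tbcc by 0.57 on the log2 scale. Without OSKM replicate 3 the list had 0 calls, and it had 1 call without OSKM replicate 1, without control replicate 3 or without control replicate 5. The ratio of summed CCT to summed tubulin cofactors overlapped between groups (exact permutation p = 0.4).

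Hsp70 and Hsp90 partners gave 4 higher and 0 lower calls among 11, with a median of 0.28. Hsp90aa1, the inducible cytosolic Hsp90, rose 2.83-fold in mean level, from 101 and 76.3 scaled RPKM in control replicates 3 and 5 to 234, 281 and 239 in OSKM replicates 1 to 3. Hsph1, an Hsp110 exchange factor, rose by 1.18 on the log2 scale, Hspa8 by 0.50 and Hspa4 by 0.45. Hspa8 and Hspa4 were not called without OSKM replicate 3 or without control replicate 5, and Hspa4 was also not called without control replicate 3. Hspa1a, the stress-induced Hsp70, measured 41.5 ± 10.2 (SD, n = 3) and 40.6 ± 7.30 (SD, n = 2) scaled RPKM and was not called. The list had 2 calls without OSKM replicate 3 and 2 without control replicate 5, in the latter case with a median of −0.02.

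The mitochondrial chaperonin genes Hspd1 and Hspe1 gave 0 calls and a median of 0.13. Hsf1, the main heat shock factor, fell by 0.59 on the log2 scale (SE 0.16, limma, adjusted p = 0.0245) and lost its call in 5 of 14 alternatives, and Hsf2 was not called.

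**Figure D4:**
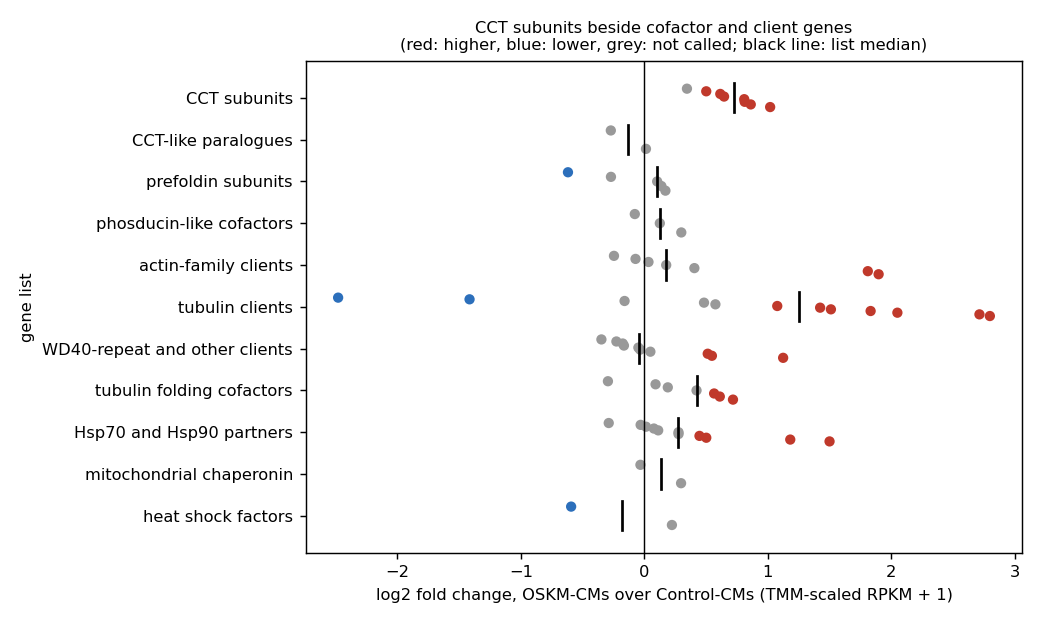
Log2 fold change of each tested gene, OSKM-CMs over Control-CMs, grouped by list, with called higher genes in red, called lower genes in blue, genes not called in grey and list medians as black lines. The CCT subunits lie between 0.35 and 1.02, a narrower span than the tubulins (−2.48 to 2.80), and prefoldin has 1 blue point and no red ones.

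Levels of cell type markers also differed between the groups. Fibroblast markers summed to 192, 88.4 and 200 scaled RPKM in OSKM replicates 1 to 3 and to 67.0 and 35.3 in control replicates 3 and 5, and 4 of the 7 tested rose (Postn, Col1a1, Col1a2 and Col3a1). The CCT sums of OSKM replicates 1 to 3 were 638, 718 and 710 scaled RPKM, and 708, 806 and 809 by deposited RPKM. A relation between fibroblast and CCT sums was not tested. Cardiomyocyte markers gave 8 lower calls among 9, with a median of −1.31, and their sum was 16149 to 18036 in OSKM-CMs and 34286 to 38131 in controls. These defining markers of the labelled cell type were abundant in all 5 libraries, among them Tnnt2 at a mean of 3104 scaled RPKM in OSKM-CMs and 4718 in controls.

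Endothelial markers gave 1 lower call (Kdr) among 7, with sums of 30.8 to 66.3 in OSKM-CMs and 72.4 to 95.9 in controls. Mural markers gave 2 higher calls (Cspg4 and Pdgfrb) and 1 lower (Abcc9) among 6, with sums of 75.5 to 109 and 146.5 to 166. Much of the mural sum in controls was Abcc9 alone, at 81.9 and 79.6 scaled RPKM in control replicates 3 and 5. It measured 13.8, 16.6 and 12.1 in OSKM replicates 1 to 3, so the difference between these sums rests largely on this gene. Myeloid markers gave 0 calls among 3, with sums of 5.72 to 21.1 and 9.32 to 37.4, and Ptprc had 0 reads in OSKM replicate 2. The 5 lymphocyte markers were not analysed here. The part of these cells, or of the mitochondrial read share, in the CCT difference was not tested.

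The genes whose profile over the 5 libraries lay closest to the mean CCT profile were Rpl17, Vars, Terf2, Mcts1 and Ddr1. Their root-mean-square distances to it were 0.02, 0.03, 0.03, 0.04 and 0.04 on the log2 scale. Rpl17, a ribosomal protein gene, measured 369, 409 and 410.3 scaled RPKM in OSKM replicates 1 to 3 and 234 and 244 in control replicates 3 and 5. These 5 genes were picked as the closest of 10907, and no subunit was as close to the CCT mean. Cct5 was nearest at 0.05, with 16 of 10907 other genes closer than it, and Cct7 farthest at 0.19, with 1058 closer.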

How the data were processed

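The members and gene lists were chosen with earlier results of these data known. Per the submitters' processing notes, the tools included STAR 2.5.3, HTSeq, Trimmomatic, FastQC and CASAVA 1.8.2, on build mm9. The annotation, strand setting and differential test are not given in the sources used here. The authors' deposited library values were RPKM, a unit inferred from the values. Beside them the authors deposited, per gene, log2 values (a fold change and an average abundance), a likelihood-ratio score, and a p-value with its FDR. Whole reads were recovered from the RPKM steps for 100% of 12446 genes (tolerance 0.0001 reads), and the recovered gene lengths came with them.

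TMM factors (trimming 30% of log ratios and 5% of abundances) were computed from those reads, and limma 3.58.1 (R 4.3.3) was fitted to log2(scaled RPKM + 1) over the 10915 genes whose mean RPKM reached 1. The fit used a trend and robust empirical Bayes with group as the only term, and Benjamini-Hochberg adjustment over all tested genes at 0.05. A fold change on this scale understates low genes. The pipeline was tested on simulated data. Named were the 8 subunits, up to 4 called genes per list with the largest change, and the 5 genes nearest to the mean CCT profile. Genes named beside these rules (such as Actc1, Hspa1a, Tuba4a, Mrpl18 and the cell type markers) were chosen after their values were seen. Copies of subunit transcripts (at least 90% identity over 200 bases) in GENCODE M21 were the pseudogenes Cct3-ps1 and Gm5380 (Cct7). Parts of Pradc1 (Cct7) and Acat3 (Tcp1) also matched, but these genes overlap the subunit on the opposite strand and are not copies. Reads shared with any of these genes cannot be told apart here. Alternatives were other pseudocounts, filters and scalings, limma voom on the recovered reads, other measures of balance, and leaving out each library.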

Additional observations from a re-analysis of the deposited data

How the results depend on the processing

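Over the 14 alternatives, between 6 and 8 of the 8 CCT subunits were called higher and 0 lower. All 8 passed with library totals alone and with totals without genes of mitochondrial DNA, and 6 passed without control replicate 3 (Cct4 lost) or control replicate 5 (Cct2 lost). Tcp1, Cct3, Cct5, Cct6a and Cct8 passed in all 14, and Cct7 in 2. Genes changed numbered 3298 and 2215 to 3066 without single libraries. The split of 1740 higher and 1558 lower became 3985 and 650 with library totals alone, and 2609 and 1025 with totals without mitochondrial genes. The log2 ratio of summed CCT levels, 0.71, was 1.13 and 0.91 under those scalings and 0.68 to 0.76 without single libraries. Leaving out single libraries moved the log2 ratio of shares to between −0.14 and −0.020 for Tcp1, −0.22 and 0.11 for Cct2, −0.031 and 0.26 for Cct6a, 0.30 and 0.38 for Cct3, and −0.42 and −0.29 for Cct7. Without control replicate 3, Cct2 and Cct6a changed sign. The CCT median stood 0.56 above that of the companion genes, 0.61 with library totals alone and 0.47 to 0.61 without single libraries. Of 80 list medians under alternatives 7 changed sign. Those of paralogues, WD40 clients and heat shock factors were 0.20, 0.35 and 0.20 with library totals alone, that of paralogues was 0.033 without OSKM replicate 3, that of mitochondrial chaperonin −0.047 without OSKM replicate 2, that of prefoldin −0.22 without control replicate 3 and that of Hsp70 and Hsp90 partners −0.015 without control replicate 5. The cause of these moves was not tested beyond the scaling or library changed. No paired analysis was possible because number 3 is the single replicate label found in both arms. Of the fold changes of single named genes under the alternatives, 338 kept direction and side of the threshold, 36 lost the call with the same direction, 2 newly passed and 0 reversed. Depth limits a subunit to a counting error of 3.19% to 6.06% per library. Where an arm was left with 1 library, it was assumed to vary like the other group.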

Other observations

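Other genes start close to CCT genes in GENCODE M21 on GRCm38. Psph shares 452 bases with Cct6a on the opposite strand, and its log2 fold change was 0.12 (limma, adjusted p = 0.690). Usp16 shares 192 bases with Cct8, with 0.46 (limma, adjusted p = 0.0905). Pradc1, listed in the table as 1700040I03Rik, shares 457 bases with Cct7, with −0.30 (limma, adjusted p = 0.341). Fam173b lies within 500 bases of Cct5 without overlap, with −0.17 (limma, adjusted p = 0.498). Of the 5 measured opposite-strand neighbours, Mrpl18 beside Tcp1 was called and it fell. The 5 CCT genes beside them gave 4 higher calls. Of all tested genes 14.3% were called lower and 15.9% higher, so a single lower call among 5 neighbours is near the general share.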
